A study of Mus musculus with 12 samples.

Results

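The genes described here were 10 transcriptional regulators of energy metabolism, taken by name from the 21493 genes counted in every library, and all 10 were found and tested. They were the coactivators Ppargc1a and Ppargc1b, the oestrogen-related receptors Esrra, Esrrb and Esrrg, the fatty acid receptors Ppara and Ppard, the mitochondrial factors Tfam and Nrf1, and the muscle regulator Perm1. They were measured as polyadenylated RNA in adult cardiomyocytes of 3-month-old mice. Des+/+ mice had desmin, the main intermediate filament protein of heart muscle, and Des-/- mice were desmin-deficient. Mice of each genotype had either gone through swimming exercise (swim) or not (non-swim), giving 4 groups of 3 libraries. The cells were freed from the heart by perfusion with trypsin and collagenase D and harvested at once. Each library held the cells of several mice by the study's methods, so the spread given below is between pools. The same methods use these genotype names for mice with an added αMHC-GFP reporter, which the sample labels do not mention.

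In the heart most ATP comes from the oxidation of fatty acids, and the genes for that work are switched on largely by nuclear receptors. PPARα and PPARδ bind fatty acids and bind DNA with a retinoid X receptor, while the oestrogen-related receptors (ERRs) act without a known natural ligand and read the genes of the citric acid cycle and the respiratory chain. PGC-1α and PGC-1β, the products of Ppargc1a and Ppargc1b, do not bind DNA themselves; they dock on these receptors and on NRF1, and so join fuel use to the making of mitochondria. TFAM packages mitochondrial DNA and helps to start its transcription, and PERM1 is a striated muscle protein that works with PGC-1 and the ERRs. Ppargc1a is known for its quick response to exercise and to cAMP signalling.

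Levels are given as CPM, the reads of a gene relative to all reads assigned to genes in the same library, scaled between libraries. A gene was called changed where edgeR's quasi-likelihood test, fitted over the 13158 genes with enough reads, gave a Benjamini-Hochberg adjusted p under 0.05. Reads assigned to genes ran between 4320819 and 12072443 per library, with the lowest totals in Des-/- swim mice (4320819 to 6521963). A count of 3 reads amounted to 0.694 CPM in the shallowest library, and the smallest count of any of the 10 genes in any library was 17, for Ppara. Desmin mRNA itself averaged 2367 CPM in Des+/+ non-swim, 1273 CPM in Des+/+ swim, 59.5 CPM in Des-/- non-swim and 96.5 CPM in Des-/- swim cells, and every Des-/- library lay below every Des+/+ library. The first principal component carried 48.9% of the variance and separated the genotypes. Des+/+ libraries lay at -54.2 to -30.0 on it and Des-/- libraries at 4.39 to 102. Replicate 3 was the highest of its own group in both Des-/- groups, at 102 in non-swim and 59.0 in swim. Des-/- non-swim replicate 1, at 40.9, lay nearer to that swim library than non-swim replicate 3 did. Of uniquely aligned reads, the share that fell in no gene was 34.0% to 39.3% in Des+/+ non-swim, 45.9% to 50.4% in Des+/+ swim, 34.2% to 52.3% in Des-/- non-swim and 57.2% to 64.5% in Des-/- swim libraries, and its part in the results was not tested.

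The cell type markers also moved with genotype, and this bears on each level below. All 12 cardiomyocyte markers (Myh6, Tnnt2 and others) were called lower in Des-/- non-swim than in Des+/+ non-swim libraries, with a median log2 change of -2.13. Their summed level ran from 72935 to 110472 CPM in Des+/+ non-swim, 35822 to 58624 CPM in Des+/+ swim, 7224 to 33913 CPM in Des-/- non-swim and 17771 to 29717 CPM in Des-/- swim libraries. In the same non-swim comparison 11 of 12 fibroblast markers, 9 of 12 macrophage markers and 10 of 12 genes of an isolation response list (Fos, Jun and others) were called higher. The list is named for genes known to respond to cell isolation, and what raised them here was not tested. Of 12 endothelial markers 0 were called, and of 10 mural cell markers 1 was called, lower. No marker of any list was at 0 reads in a whole group. In RNA from a bulk preparation, fewer cells of a type and less RNA per cell cannot be told apart.

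Sequence before the RefSeq start is shown first for 4 of the genes, those with a match to a motif searched for. The choice did not follow the size of the change. Esrrb and Esrrg, with log2 changes of -2.23 and -2.24 between genotypes in non-swim cells, had no match, and Tfam is shown with -0.72. The sequences are RefSeq promoter windows on the mouse build GRCm38.p6, written 5′ to 3′ on the strand of the gene, with capitals for a motif found by a search of both strands. In Ppargc1a (chr5:51567727-51567975, minus strand, from 250 to 2 bases before the start) the capitals mark the cAMP response core TGACGT read on the opposite strand, 50 bases before the start. In Perm1 (chr4:156215677-156215867, plus strand) they mark a nuclear receptor half-site AGGTCA, also on the opposite strand, 202 bases before the start. In Ppara (chr15:85735735-85735764, plus strand) they mark the palindromic NRF1 element, in which any base may stand in place of the T, 31 bases before the start. In Tfam (chr10:71238073-71238102, minus strand) they mark the element CCGGAAG of the ETS factor GABP, known also as nuclear respiratory factor 2, 47 bases before the start.
Ppargc1a: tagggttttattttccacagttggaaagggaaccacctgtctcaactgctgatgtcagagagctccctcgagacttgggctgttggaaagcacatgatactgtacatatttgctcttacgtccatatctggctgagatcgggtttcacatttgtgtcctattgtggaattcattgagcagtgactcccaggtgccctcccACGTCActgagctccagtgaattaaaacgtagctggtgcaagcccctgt
Perm1: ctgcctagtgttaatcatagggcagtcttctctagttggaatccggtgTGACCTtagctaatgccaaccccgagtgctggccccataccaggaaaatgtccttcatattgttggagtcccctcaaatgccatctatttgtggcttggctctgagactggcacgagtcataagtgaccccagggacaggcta
Ppara: gggctcggtgGCGCATGCGCgcggactagg
Tfam: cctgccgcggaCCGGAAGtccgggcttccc
Over all 32851 windows of the same length (250 bases before to 50 after a start), the cAMP core was found in 7.51%, the half-site in 16.3%, the NRF1 element in 4.6% and the GABP element in 8.86%. Windows were at hand for 9 of the 10 genes, 14 windows in all, and each of these motifs occurred in 1 of them. The full ERR element TCAAGGTCA, which contains the half-site, was in 0.423% of all windows and in 0 of the 14, and the PPAR element, made of AGGTCA repeated on the same strand after 1 base of any kind, was in 0.0396% of all and in 0 of the 14. The Ppara and Tfam stretches lie inside the GENCODE spans of these genes given next, which begin further upstream than the RefSeq starts used. These are matches of letters only.

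The genes lay on 10 different chromosomes in GRCm38. Ppargc1a covered chr5:51454250-51567726 and Ppargc1b chr18:61298136-61400431, both on the minus strand. Esrra was at chr19:6910977-6921813 on the minus strand, Esrrb at chr12:86361117-86521628 and Esrrg at chr1:187608791-188214885, both on the plus strand. Ppara was at chr15:85734983-85802819 and Ppard at chr17:28232700-28301474 on the plus strand. Tfam was at chr10:71225464-71238280 on the minus strand, Nrf1 at chr6:30047988-30153458 and Perm1 at chr4:156215868-156221307, both on the plus strand. Esrra shared 91 exon bases with the microRNA gene Mir6990 on its own strand and 73 with Trmt112 on the opposite strand, and reads in the first stretch cannot be assigned to one gene by strand. The microRNA gene Mir378a lies inside Ppargc1b and held at most 2 reads in any library.

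Per kilobase of exon, Perm1 was the most abundant of the regulators in Des+/+ non-swim cells, at 82.9 ± 27.6 CPM per kb (SD, n = 3 here and below), followed by Esrra at 42.7 ± 3.70 CPM per kb. Tfam (11.3 ± 0.945) and Ppargc1a (10.2 ± 0.228) came next, and the ranges of these 4 did not overlap with their neighbours in the order. Ppard (7.24 ± 0.144), Esrrg (6.55 ± 1.43), Ppargc1b (5.84 ± 0.142), Esrrb (5.18 ± 1.42) and Ppara (4.85 ± 0.955 CPM per kb) followed, of which each of the first 4 overlapped the next. Nrf1 was lowest, at 2.70 ± 0.211 CPM per kb. In Des-/- non-swim cells Perm1 (17.2 ± 15.03) and Esrra (14.5 ± 2.13) still led but overlapped, and Ppara was last at 1.05 ± 0.746 CPM per kb.

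**Figure D1:**
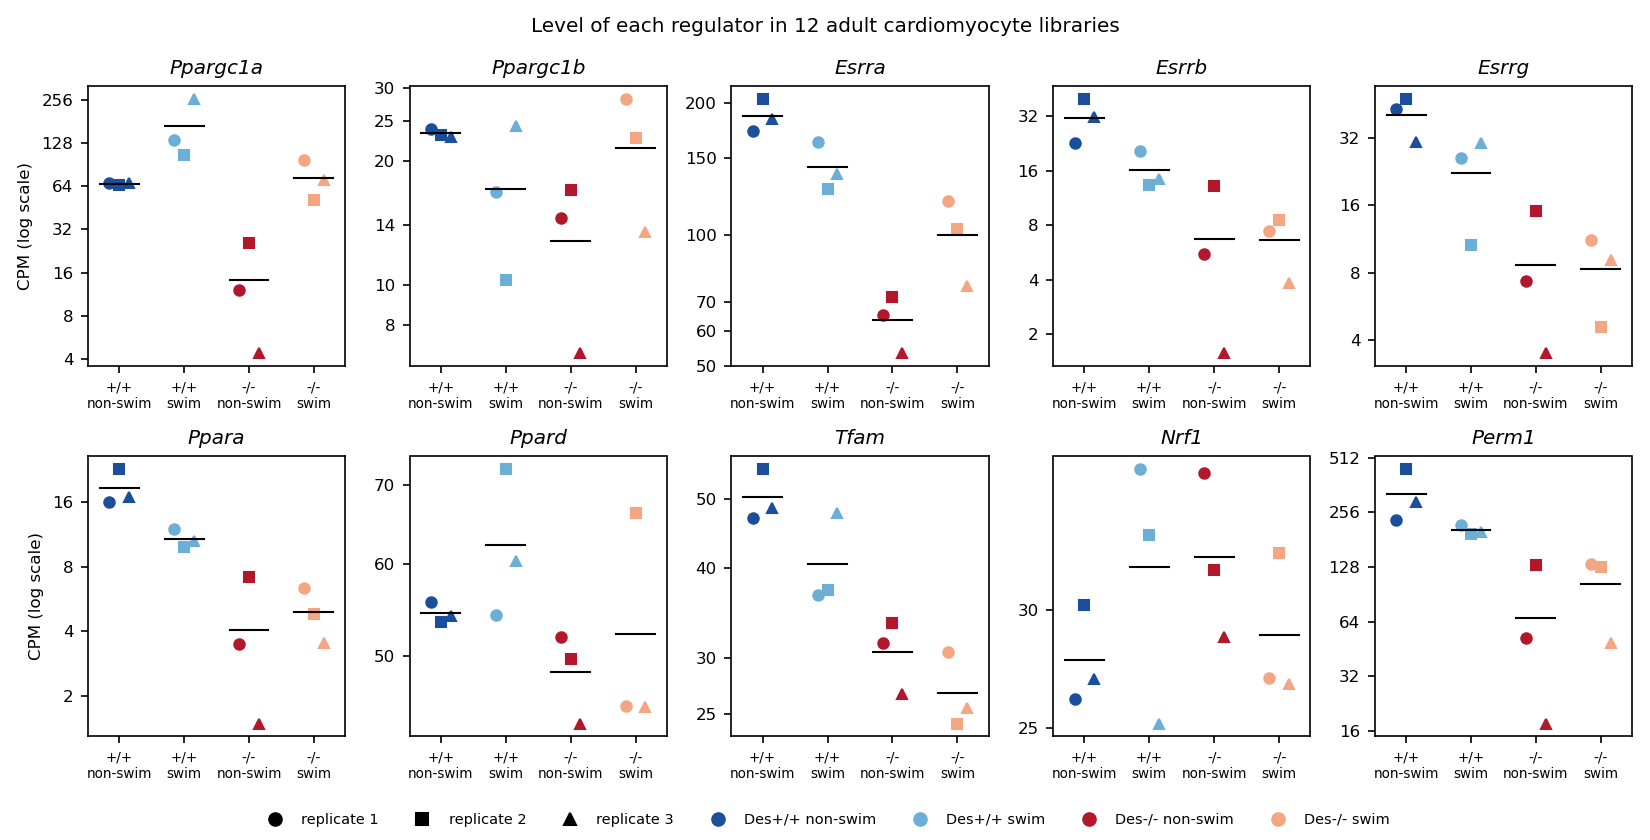
Level of each of the 10 regulators in the 12 libraries, as CPM on a log scale with its own range in each panel. Points are single libraries, shaped by replicate number, and black lines are group means (n = 3). Ppargc1a spans 4.37 to 263 CPM, while Nrf1 stays between 25.2 and 37.3 CPM.

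The first question was how the regulators differed between genotypes without exercise. In Des-/- cells 7 of the 10 were called lower and 0 higher, against 18% of all genes tested called lower and 14% called higher. The 7 were Ppargc1a, Esrra, Esrrb, Esrrg, Ppara, Tfam and Perm1, and 5 of them had a log2 change of -2 or below, as had 2.83% of all genes. The median log2 change of the 10 was -1.89 beside 0.039 over all genes. In 9 of the 10 every Des-/- non-swim library was below every Des+/+ non-swim library, which was so for 24.9% of all genes.

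Ppargc1a was at 68.0, 65.2 and 67.6 CPM in the Des+/+ non-swim libraries and at 12.01, 25.9 and 4.37 CPM in the Des-/- non-swim libraries. The wild-type values were almost equal, the null values were spread over several fold, and replicate 3 was lowest. The log2 change was -2.26 (SE 0.52, adjusted p = 0.00823), and 1.76% of the genes tested had a lower one. Ppargc1b, the second coactivator, ran at 23.9, 23.1 and 22.8 CPM in Des+/+ and 14.6, 17.0 and 6.82 CPM in Des-/- cells. These groups did not overlap either, but the change of -0.87 (SE 0.38) was not called (adjusted p = 0.0978).

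Esrra, which encodes ERRα, gave the lowest adjusted p of the 10. It was at 173, 205 and 184 CPM in Des+/+ non-swim and at 65.3, 71.9 and 53.4 CPM in Des-/- non-swim libraries, both tight groups with a wide gap between them. Its log2 change was -1.56 (SE 0.18, adjusted p = 7.87e-04). Esrrb fell from a range of 22.6 to 39.9 CPM to one of 1.57 to 13.1 CPM (-2.23, SE 0.56, adjusted p = 0.0124). Esrrg fell from 30.9 to 48.0 CPM to 3.50 to 15.2 CPM (-2.24, SE 0.52, adjusted p = 0.00790). Neither group of null values overlapped its wild-type group.

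Ppara, the receptor that drives fatty acid oxidation genes, was at 16.0, 22.8 and 17.0 CPM in Des+/+ non-swim and 3.51, 7.13 and 1.49 CPM in Des-/- non-swim libraries. The highest null library was below the lowest wild-type one, with a log2 change of -2.21 (SE 0.44, adjusted p = 0.00395). Ppard, its more widely expressed relative, was at 53.5 to 55.6 CPM in Des+/+ and 43.8 to 52.0 CPM in Des-/- cells, a change of -0.17 (SE 0.16) that was not called (adjusted p = 0.464). Perm1 was at 234, 443 and 294 CPM in Des+/+ non-swim and 52.3, 132 and 17.6 CPM in Des-/- non-swim libraries (-2.27, SE 0.59, adjusted p = 0.0140). Its highest library was replicate 2 of Des+/+ non-swim, and with that library left out Perm1 was no longer called (-1.98, adjusted p = 0.0529).

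Of the mitochondrial factors, Tfam was at 47.0, 54.9 and 48.5 CPM in Des+/+ non-swim and 31.5, 33.5 and 26.7 CPM in Des-/- non-swim libraries. It fell by 0.72 on the log2 scale (SE 0.15, adjusted p = 0.00497), the smallest of the changes called among the 10. Nrf1 was at 26.2 to 30.3 CPM in Des+/+ and 28.8 to 37.1 CPM in Des-/- cells, overlapping groups with a change of 0.23 (SE 0.17, adjusted p = 0.318). The same 7 genes were called lower with replicate 3 of both Des-/- groups left out, against 14.4% of all genes in that fit, with changes of -1.75 for Ppargc1a, -1.38 for Esrra, -1.73 for Ppara and -0.56 for Tfam. Leaving out replicate 2 of the Des-/- non-swim group alone moved the change of Ppargc1a to -3.04, of Esrrb to -3.16, of Esrrg to -2.92, of Ppara to -2.91 and of Perm1 to -3.22.

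**Figure D2:**
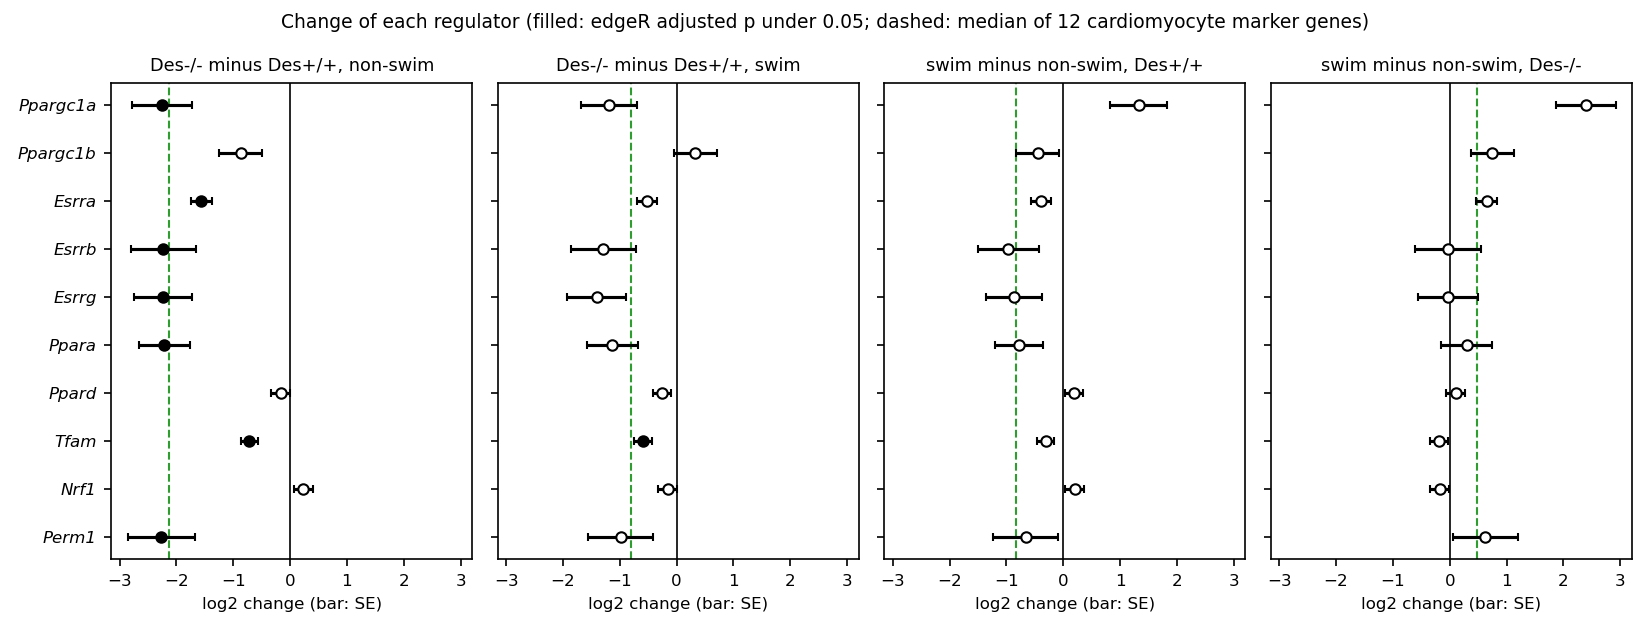
Log2 change of each regulator in the 4 comparisons, with its SE as a bar. Filled points had an edgeR adjusted p under 0.05, and the dashed line is the median change of 12 cardiomyocyte marker genes. In the non-swim genotype comparison 5 regulators sit near the marker median of -2.13, and in the swimming comparisons Ppargc1a lies to the right of it, at 1.33 and 2.39.

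Since the cardiomyocyte markers fell as well, each regulator was also set against them, as its log2 level minus the mean log2 level of the 12 markers in the same library. For Ppara this difference was -8.09 ± 0.036 (SD) in Des+/+ non-swim and -8.09 ± 0.069 in Des-/- non-swim libraries, so Ppara and the markers differed between genotypes by the same amount. Esrrg shifted by -0.048, Ppargc1a by -0.20, Esrrb by -0.21 and Perm1 by -0.29 between the genotypes on this scale, each less than the larger SD of the groups compared. Esrra moved the other way, by 0.80, having fallen less than the markers, with an SD of 0.84 in the null group. Ppargc1b (1.41), Tfam (1.64), Ppard (2.19) and Nrf1 (2.58) were all higher in Des-/- cells relative to the markers. These differences carry no test, and the part of cell make-up in the changes above was not tested.

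**Figure D3:**
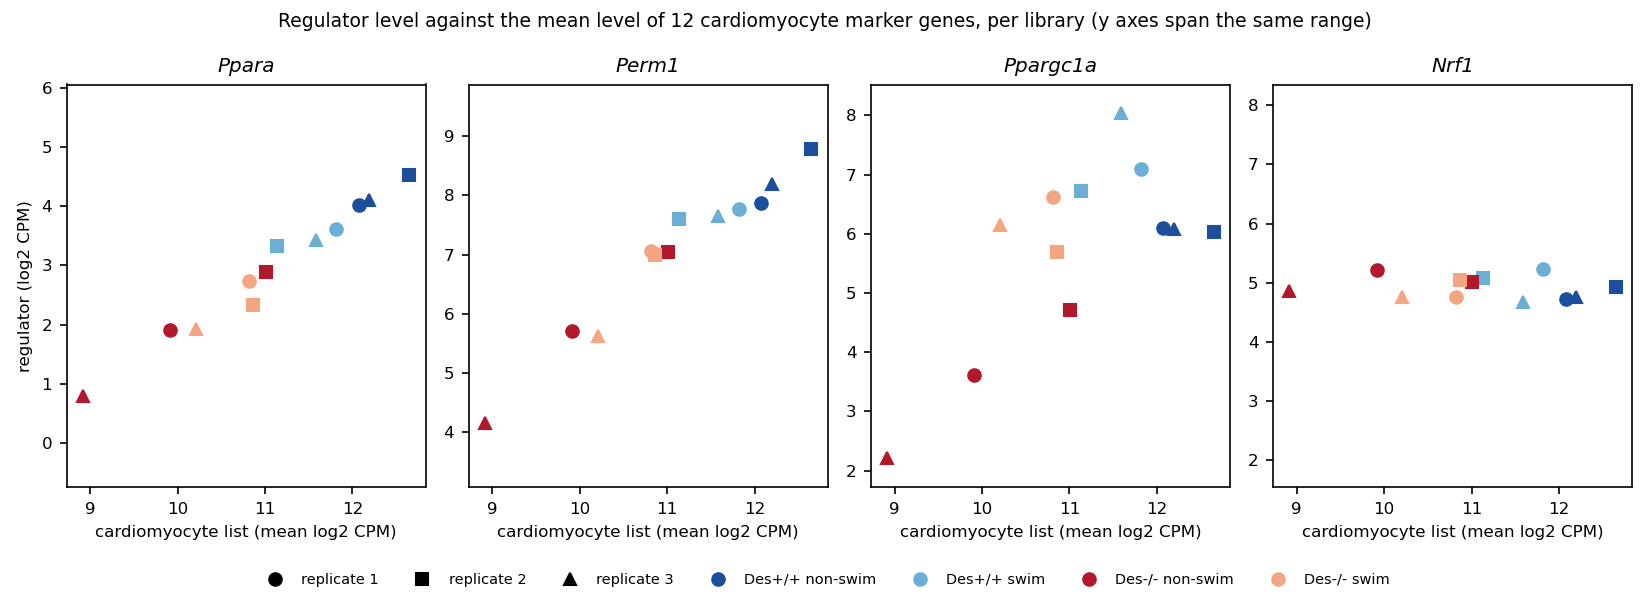
Log2 CPM of 4 regulators against the mean log2 CPM of 12 cardiomyocyte markers, with 1 point for each of the 12 libraries. Ppara and Perm1 rise with the marker level across all groups, Nrf1 is flat, and for Ppargc1a the swim libraries lie above the non-swim libraries of the same genotype.

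The second question was whether the genotypes also differed after swimming. In swim cells 1 of the 10 regulators was called, Tfam, which was lower in Des-/- cells, against 5.57% of all genes called lower and 10.6% in either direction. Tfam was at 36.7, 37.2 and 47.7 CPM in Des+/+ swim and 30.6, 24.3 and 25.6 CPM in Des-/- swim libraries, groups that did not overlap. Its log2 change was -0.59 (SE 0.15, adjusted p = 0.0334). This call was lost when any of 5 libraries was left out, namely replicate 3 of the Des+/+ non-swim (0.0527), replicates 1 (0.0551) and 3 (0.126) of the Des+/+ swim, and replicates 2 (0.0942) and 3 (0.0841) of the Des-/- swim group, the values being adjusted p. It was lost too with the replicate number as a block within the Des-/- libraries (-0.48, adjusted p = 0.123).

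The other swim differences were mostly of the same sign and did not pass the test. Ppargc1a was at 136, 106 and 263 CPM in Des+/+ swim and 98.1, 51.2 and 70.5 CPM in Des-/- swim libraries, so the lowest wild-type value lay just above the highest null value (-1.19, SE 0.50, adjusted p = 0.132). Esrra was at 163, 127 and 138 CPM against 119, 103 and 76.4 CPM (-0.52, SE 0.18, adjusted p = 0.0809). Ppara was at 9.84 to 12.05 CPM against 3.54 to 6.40 CPM (-1.13, adjusted p = 0.113), Esrrb at 13.3 to 20.5 CPM against 3.85 to 8.53 CPM (-1.29, adjusted p = 0.152) and Perm1 at 195 to 218 CPM against 49.1 to 134 CPM (-0.98, adjusted p = 0.264). With Tfam these made 6 of 10 genes whose Des-/- swim libraries all lay below the Des+/+ swim libraries, against 18.6% of all genes. Esrrg overlapped, at 10.7 to 30.6 CPM against 4.59 to 11.2 CPM (-1.41, adjusted p = 0.0974). Ppargc1b had the opposite sign (0.33, adjusted p = 0.580), and Ppard (-0.26) and Nrf1 (-0.16) had adjusted p-values of 0.313 and 0.558. When the fit left out Des-/- non-swim replicate 3, which is in neither group compared here, 5 of the 10 were called lower, namely Ppargc1a, Esrrb, Esrrg, Ppara and Tfam, with adjusted p from 0.0243 to 0.0441, against 8.59% of all genes. Of the 12 cardiomyocyte markers 1 was called lower here, with a median of -0.80, while 3 of 12 fibroblast and 8 of 12 isolation response genes were called higher, with medians of 1.1 for both lists. The part of these markers in the swim differences was not tested.

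The third question was the response to swimming within each genotype, in comparisons that use the same libraries as the genotype comparisons above. In Des+/+ mice edgeR called 0 of the 10 regulators, against 0.0912% of all genes. An unadjusted p under 0.05 was found for 2 of the 10, against 20.5% of all genes, and DESeq2 also called 0, against 7.89%. Ppargc1a was higher in each swim library (136, 106 and 263 CPM) than in any non-swim library (65.2 to 68.0 CPM), as were 12.5% of all genes, a 2.51-fold difference in the fit (log2 1.33, SE 0.50, adjusted p = 0.176). The swim libraries were far less alike than the non-swim ones, with replicate 3 at the top. With replicate 3 of both Des-/- groups left out of the fit, the same comparison gave 1.40 and was called (adjusted p = 0.0462), as were 5.62% of all genes. Esrra, Esrrb, Esrrg, Ppara and Perm1 were lower in every swim than in every non-swim library, by between 0.39 and 0.96 on the log2 scale, with adjusted p from 0.242 to 0.530, and 18.7% of all genes were lower without overlap. The cardiomyocyte marker median was -0.83 in the same comparison, with 0 of 12 called.

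In Des-/- mice 0 of the 10 regulators were called by edgeR, against 0.0228% of all genes. The unadjusted p was under 0.05 for 2 of them, against 16.7% of all genes, and DESeq2 called the same 2, Ppargc1a and Esrra, against 2.65%. Ppargc1a was at 98.1, 51.2 and 70.5 CPM in swim and 12.01, 25.9 and 4.37 CPM in non-swim libraries, with no overlap and a fitted difference of 5.25-fold (log2 2.39, SE 0.53, adjusted p = 0.164). Of all genes tested, 99.8% had a lower change in this comparison. Same-numbered libraries of these 2 groups deviated alike from their group means, most in replicate 3, but no pairing of the mice is known. With the number as a block within the Des-/- libraries, a setting chosen after the data were seen, Ppargc1a was called higher (2.62, adjusted p = 0.0285), against 2.77% of all genes called. The block also gave a call for Esrra (0.64, adjusted p = 0.0423), which stood at 119, 103 and 76.4 CPM in swim and 65.3, 71.9 and 53.4 CPM in non-swim libraries (0.65, SE 0.18, adjusted p = 0.187 without the block). These 2 were the genes of the 10 whose swim libraries all exceeded the non-swim libraries, as did 10.4% of all genes. Ppargc1b (0.75, adjusted p = 0.337), Perm1 (0.62, adjusted p = 0.598) and Ppara (0.30, adjusted p = 0.764) were not called, and the cardiomyocyte marker median was 0.48. The median of the fibroblast markers was -0.86, of the macrophage markers -1.53 and of the isolation response genes -0.53 in this comparison, against -0.20, 0.015 and -0.097 for swimming in Des+/+ mice, and their part was not tested.

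Set against the cardiomyocyte markers, Ppargc1a was higher in swim cells by 2.01 on the log2 scale in Des+/+ and by 1.96 in Des-/- mice. No other regulator shifted by more than 0.98 between swim and non-swim cells on this scale. Ppard (0.98 and -0.59), Nrf1 (0.98 and -0.85) and Tfam (0.48 and -0.87) shifted in opposite directions in Des+/+ and Des-/- mice. The mean marker level itself went from 12.3 to 11.5 in Des+/+ and from 9.95 to 10.6 in Des-/- mice. Without the markers the fitted changes were 0.19 and 0.11 for Ppard, 0.21 and -0.18 for Nrf1, and -0.31 and -0.19 for Tfam, none called. Group SDs on the marker scale reached 0.61 for Ppargc1a and 0.99 for Nrf1, and these shifts carry no test. Averaged over both genotypes, a contrast added after the values had been seen, Ppargc1a rose 3.63-fold with swimming (log2 1.86, SE 0.36, adjusted p = 0.0410). It was the 1 of 10 called there, beside 0.616% of all genes called higher. Ppargc1a was also higher without overlap in both genotypes, as were 1.79% of all genes. The edgeR call was kept when Des-/- non-swim replicate 2 or 3 or Des-/- swim replicate 3 was left out, and lost on leaving out any of the other 9 libraries, with adjusted p from 0.0629 to 0.112. It was also lost with the replicate number as a block over all libraries (1.87, adjusted p = 0.0707), and kept with the block in the Des-/- libraries alone (1.98, adjusted p = 0.0139).

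For the difference between the genotypes in their response to swimming, 0 of the 10 regulators were called by edgeR, as were 0% of all genes. The unadjusted p was under 0.05 for 2 of them, Esrra and Ppargc1b, against 16.3% of all genes, and DESeq2 called 1, Esrra, against 3.84%. For Ppargc1a this difference was 1.06 (SE 0.71, adjusted p = 0.451), and the difference between 2.39 in Des-/- and 1.33 in Des+/+ mice did not pass the test. Esrra had the lowest adjusted p of the 10 (1.04, SE 0.25, adjusted p = 0.199; DESeq2 adjusted p = 0.0192). All 3 Des+/+ swim libraries lay below the Des+/+ non-swim libraries and all 3 Des-/- swim libraries above the Des-/- non-swim libraries, a pattern shared by 1.34% of all genes. Ppargc1b (1.20, adjusted p = 0.297) and Perm1 (1.28, adjusted p = 0.427) had larger differences with larger errors. The cardiomyocyte marker median of this difference was 1.27, with 0 of 12 called, and its part was not tested.

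The balance of members within each family was measured as the share of summed CPM per kb, and the shares carry no test. Ppargc1a made up 63.5 ± 0.609% of the PGC-1 pair in Des+/+ non-swim, 85.3 ± 1.96% in Des+/+ swim, 36.4 ± 10.4% in Des-/- non-swim and 67.2 ± 9.24% in Des-/- swim cells. The share was higher in swim than in non-swim libraries without overlap in both genotypes, and in Des-/- non-swim cells Ppargc1b was the larger of the pair per kb in every library. This order depends on the annotated exon lengths, 6592 bases for Ppargc1a and 3990 for Ppargc1b. Before division by length, Ppargc1a was the higher in Des-/- non-swim replicate 2 (25.9 against 17.0 CPM), and Ppargc1b in the other replicates of that group. Esrra made up 78.6 ± 1.98%, 84.1 ± 3.6%, 86.4 ± 7.89% and 90.3 ± 1.21% of the 3 ERRs in the same order of groups. The Des+/+ and Des-/- ranges of Esrra overlapped in non-swim but not in swim libraries (81.1% to 88.1% against 89.2% to 91.6%). Swim and non-swim ranges overlapped in Des-/- but not in Des+/+ mice, whose non-swim shares were 76.5% to 80.5%. Ppara made up 39.9 ± 4.96%, 25.6 ± 4.63%, 13.3 ± 7.98% and 15.8 ± 5.09% of Ppara plus Ppard, so Ppard was the larger in every library. The Des-/- shares of Ppara in non-swim cells lay below all Des+/+ non-swim shares, while the swim groups overlapped. For swimming the cardiomyocyte marker median was -0.83 in Des+/+ and 0.48 in Des-/- mice, and the endothelial median 0.36 and 0.33. The part of cell make-up in the shares was not tested.

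**Figure D4:**
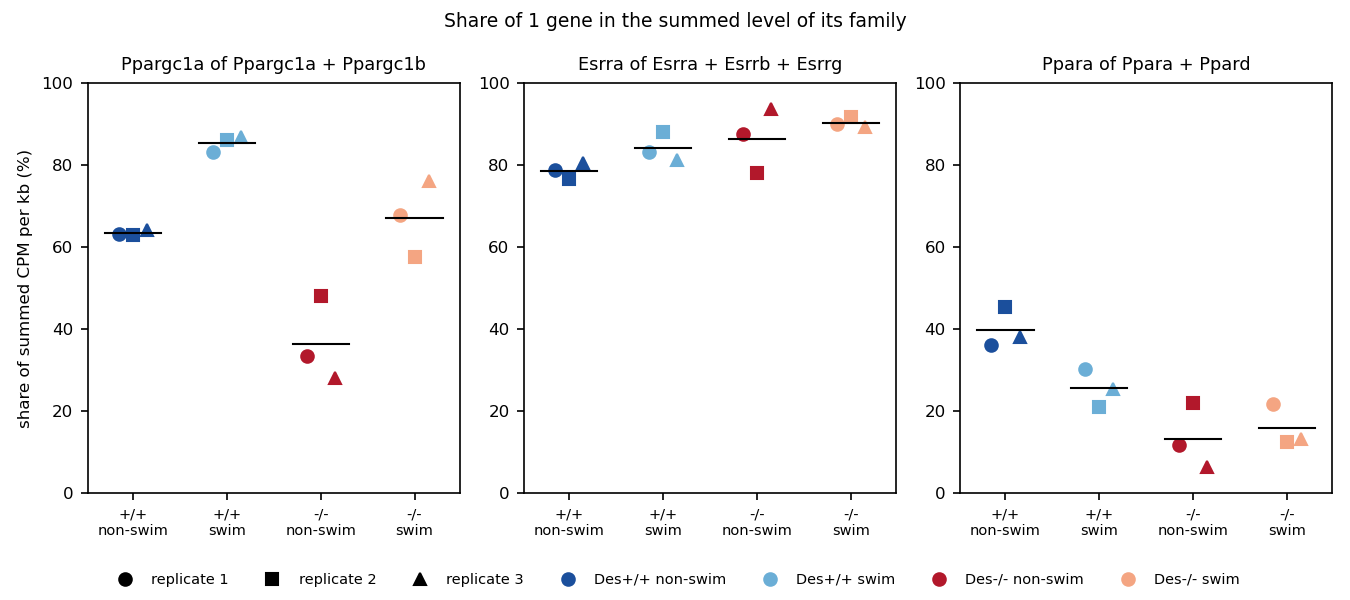
Share of Ppargc1a, Esrra and Ppara in the summed CPM per kb of their family, in percent, for each library (points) with group means (lines, n = 3). The share of Ppargc1a runs from 28.0% to 48.0% in Des-/- non-swim libraries and from 83.1% to 86.7% in Des+/+ swim libraries.

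The partners and targets of these regulators were counted in 6 lists. Of 25 genes that PPARs are known to regulate, 20 were called lower and 0 higher in Des-/- non-swim cells, against 18% of all genes called lower, with a median log2 change of -2.19, close to the cardiomyocyte marker median of -2.13. The greatest falls were in Ucp3, a mitochondrial carrier (-3.87, adjusted p = 0.00200), and Pdk4, the kinase that shuts off pyruvate dehydrogenase (-3.74, adjusted p = 7.74e-04). Plin5, which coats lipid droplets (-2.71), and Acsl1, which activates fatty acids (-2.58), followed. The members not called included, named after their values were seen, Cpt1a (-0.064), Angptl4 (0.038), Plin2 (0.89) and Ucp2 (1.01). All 18 ERR and PGC-1 targets were called lower, with a median of -1.98. Most of these belong to the citric acid cycle and respiratory chain, and the others include Mb, Sod2, Mfn2 and Slc25a4. Etfdh, which passes electrons from fatty acid oxidation to ubiquinone (-2.42), Idh3a, a citric acid cycle enzyme (-2.32), Ckmt2, the creatine kinase of muscle mitochondria (-2.27), and Cox6a2, a muscle subunit of cytochrome c oxidase (-2.24), fell most. With replicate 3 of both Des-/- groups left out, 20 PPAR targets and 18 ERR and PGC-1 targets were called lower, with medians of -1.86 and -1.68, beside a cardiomyocyte marker median of -1.71.

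Fewer genes of the other 4 lists were called in that comparison, in which 18% of all genes tested were called lower and 14% higher. Of the receptor partners 14.3% were called lower and of the coactivators and corepressors 21.4%, both near that background, beside 43.8% of the kinases and factors and 42.9% of the respiratory factor list. Of 14 receptor partners and related nuclear receptors, 2 were called lower, among them the retinoid X receptor gene Rxrg (-2.69), and 1 higher, the immediate early receptor gene Nr4a1 (1.95, adjusted p = 0.0425). Nr4a1 was not called on leaving out Des+/+ non-swim replicate 1 or 2, Des+/+ swim replicate 2 or 3, Des-/- non-swim replicate 3 or Des-/- swim replicate 2, and it fell to 0.99 (adjusted p = 0.228) without Des-/- non-swim replicate 3. Of 16 upstream kinases and factors tested, 7 were called lower, among them Prkaa2, a catalytic subunit of the energy sensor AMPK (-2.31), and Sirt3, a mitochondrial deacetylase (-1.26), with Prkag1 (-0.68) and Mef2d (-0.60). Of 14 coactivators and corepressors 3 were called lower, Lpin1 (-2.07), Kat2b (-0.85) and Ncoa2 (-0.38), the last not called in 7 of the 12 fits that left out a library. Of 14 partners of the nuclear respiratory factors and genes for the expression of mitochondrial DNA, 6 were called lower. They included Tfb2m, a transcription factor of mitochondrial DNA (-1.52), its elongation factor Tefm (-1.47), Lrpprc, which stabilises mitochondrial mRNA (-1.46), and the helicase Twnk (-1.17). The median changes of these 4 lists were -0.24, -0.50, -0.016 and -0.50 in the order given. Without replicate 3 of both Des-/- groups 2, 6, 2 and 5 genes were called lower and 0 higher. Mef2d was not called without Des+/+ non-swim replicate 2 or Des-/- non-swim replicate 3.

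In swim cells the same lists held few genotype calls. The PPAR targets had 2 called lower and 1 higher of 25, and the ERR and PGC-1 targets 5 lower of 18, against 5.57% of all genes called lower and 5.01% higher. The PPAR share called lower, 8%, was close to that background, and the ERR and PGC-1 share was 27.8%. The median log2 changes of these lists were -0.63 and -0.79, beside a cardiomyocyte marker median of -0.80. In the receptor, kinase, coactivator and respiratory factor lists 0, 3, 2 and 2 genes were called, all lower.

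Of the genes in the 6 lists only Pparg, the third PPAR gene and best known from fat cells, was called for swimming within a genotype, and it rose in both. It was at 40.8 to 46.6 CPM in Des+/+ non-swim and 93.1 to 113 CPM in Des+/+ swim libraries (1.21, SE 0.13, adjusted p = 0.00920). In Des-/- mice it was at 38.0 to 46.1 CPM in non-swim and 78.5 to 94.9 CPM in swim libraries (0.98, SE 0.13, adjusted p = 0.0420). Swim and non-swim levels did not overlap in either genotype, but both calls depended on single libraries. The Des+/+ call was lost on leaving out any Des+/+ non-swim library or Des+/+ swim replicate 3 (adjusted p up to 0.0676). The Des-/- call was kept without Des+/+ swim replicate 2 or Des-/- swim replicate 3, lost on leaving out any of the other 10 libraries (adjusted p up to 0.263). It was lost too with the replicate block over all libraries (adjusted p = 0.0629), with upper-quartile scaling (0.0535) and in the fit of the 6 libraries compared (0.410). The difference between these responses was -0.22 (adjusted p = 0.543), and that between the genotypes in non-swim cells was -0.025 (adjusted p = 0.903). In the swimming comparisons the endothelial marker median was 0.36 in Des+/+ and 0.33 in Des-/- mice, and the cardiomyocyte median -0.83 and 0.48. Which cells carried the Pparg difference, and the part of cell make-up in it, was not tested.

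The genes nearest in profile to 4 of the regulators were found as those with the smallest root mean square difference in centred log2 CPM over the 12 libraries, among 12157 genes. Ppargc1a had no close neighbour. Pdk4 (0.70), the mitochondrial nucleotide carrier gene Slc25a33 (0.72) and Proser2 (0.74) came nearest, against a spread of 1.51 in Ppargc1a itself. Pdk4 averaged 448 ± 220 CPM in Des+/+ non-swim, 524 ± 175 CPM in Des+/+ swim, 33.5 ± 10.8 CPM in Des-/- non-swim and 234 ± 60.7 CPM in Des-/- swim cells, and its change with swimming in Des-/- mice was 2.81 (adjusted p = 0.0606), called with the block within the Des-/- libraries (2.82, adjusted p = 0.00789). Esrra was followed closely by the glycolytic gene Aldoa (0.11), the complex I subunit gene Ndufb8 (0.12) and the ATP synthase subunit gene Atp5o (0.13), against its own spread of 0.62. Ppara was nearest to Mlip (0.16), Tmem38a (0.16) and Pdk2 (0.17), with an own spread of 1.04. Perm1 was nearest to Car14 (0.20), the cardiac myosin gene Myh6 (0.23), which is also one of the 12 cardiomyocyte markers, and Pygm (0.24), with an own spread of 1.24.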

How the data were processed

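Polyadenylated RNA of 12 libraries was sequenced as 100 bp single-end reads. The deposited values were raw counts per gene: the authors aligned reads to GRCm38 (mm10) with HISAT2 2.2.1, sorted them with SAMtools 1.13 and counted them with HTSeq in reverse-strand mode, without normalisation. The labels name a kit that does not keep strand and the study's methods one that does. Counts followed strand: of 69 pairs in which a gene had at least 50% of its exon bases under exons of a counted gene on the opposite strand (at least 100 reads there), 24 had under 0.1 of the partner's reads per kb. Cldn22, chosen after its values were seen, held 3 reads and lies wholly under Wwc2, with 13309. HTSeq's summary lines, which name no gene and held 52.4% to 78.8% of reads, were left out.

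Groups came from the labels. edgeR 4.0.16 (quasi-likelihood test, TMM scaling, filterByExpr) was fitted to 4 group means over all 12 libraries, with 8 residual degrees of freedom, for 5 contrasts and 1 added later, in R 4.3.3. The script was tested on simulated data. DESeq2 1.42.0, other scalings, no filter, a replicate block, fits of 6 libraries and leaving out libraries served as alternatives; limma 3.58.1 was loaded with edgeR. No 2 libraries of a group agreed within sampling noise. Same-numbered Des-/- swim and non-swim libraries correlated in their deviations from group means (0.316 to 0.602, highest for replicate 3). The other group pairs had at least 1 correlation of 0.1 or below. In groups of 3, a replicate 3 that stands apart in both can raise every such correlation, so they do not establish a pairing. Positions and exon lengths came from GENCODE M21, which 21488 of 21493 gene IDs matched. P-values measure the spread between pools, and the depth floor covers counting error only.

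The genes and lists were chosen with earlier results of these data known. All 10 regulators were named. Of each list the 4 called genes with the largest genotype change in non-swim cells and a mean count of at least 20 were named, together with any list gene called for swimming or the interaction, and the 3 nearest profiles of Ppargc1a, Esrra, Ppara and Perm1. Log2 CPM used a prior count of 2. Some genes of the lists are counted there but not reported here by name.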

Additional observations from a re-analysis of the deposited data

Results flagged for a closer look

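Esrra was singled out because swimming went with opposite differences in the 2 genotypes. In Des+/+ mice its 3 swim libraries were all lower than the 3 non-swim libraries (log2 change -0.39, adjusted p = 0.242), and in Des-/- mice its 3 swim libraries were all higher than the 3 non-swim libraries (0.65, adjusted p = 0.187). The difference between these responses was 1.04 (SE 0.25), with an edgeR adjusted p of 0.199, so it did not pass the correction; over the 12 fits that each left out 1 library it was 0.89 to 1.20. The cardiomyocyte marker median moved in the same directions, by -0.83 and 0.48, and its part in the result was not tested. Relative to those markers Esrra changed by 0.40 in Des+/+ and by -0.048 in Des-/- mice.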

How the results depend on the processing

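The 10 regulators kept their direction and their side of the threshold in the non-swim genotype comparison under each alternative, except Perm1 in 1 of the 12 fits that left out a library, so the count called was 6 to 7 there. Neither other scaling turned the direction of any of the 10. All genes called numbered 4210 (2612 to 4590 on leaving out a library). Upper-quartile scaling raised the median of all genes by 0.10 there and changed the calls to 2492 higher and 2034 lower, from 1840 and 2370, and in swim cells to 948 and 456, from 659 and 733. In swim cells the regulators called were 0 with upper-quartile scaling, the replicate block, the fit of 6 libraries, the block within the Des-/- libraries or replicate 3 of both Des-/- groups left out, 2 with DESeq2, and 0 to 5 on leaving out a library. The genes called there were 1392, against 2332 with DESeq2 and 74 to 2142 on leaving out a library.

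For swimming in Des+/+ mice 12 genes were called. This became 54 with DESeq2's scaling, 58 with no filter, 812 with the DESeq2 test, 19 with the replicate block, 282 in the fit of 6 libraries, 743 (with 1 regulator) without replicate 3 of both Des-/- groups, 184 with the block within the Des-/- libraries and 0 to 155 on leaving out a library. For swimming in Des-/- mice 3 genes were called, against 7, 339 (2 regulators), 0, 72 and 364 (2 regulators) with no filter, the DESeq2 test, the fit of 6, replicate 3 left out and the block within, and 0 to 51 on leaving out a library. The interaction had 0 calls (0 to 0 on leaving out a library), and 328 with DESeq2 (1 regulator). The averaged swimming contrast had 109, against 839 with DESeq2, 417 without replicate 3, 677 with the block within and 6 to 284 on leaving out a library; its regulators called were 0 with the replicate block and 0 to 1 on leaving out a library.

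In Des-/- mice the change of Esrrb with swimming, -0.029, turned to 0.12 with the replicate block and 0.25 with the block within the Des-/- libraries, and that of Esrrg, also -0.029, to 0.15 with the latter. On leaving out a library Esrrb ran from -0.50 to 0.90, Esrrg from -0.40 to 0.65, Ppara from -0.094 to 0.99 and Ppard from -0.10 to 0.20, and the Ppard interaction from -0.29 to 0.034. The cause of these shifts was not tested. The settings that left out replicate 3 of both groups or placed the block within the Des-/- libraries were chosen after the data were seen. Elsewhere the replicate block changed no call of a regulator except those given with the results. Among the other genes named it also ended the call of Ncoa2 in the non-swim genotype comparison (-0.38, adjusted p = 0.0560), which upper-quartile scaling ended too (-0.28, adjusted p = 0.106). The lowest counts of Esrrb and Ppara, 18 and 17 reads, were in the Des-/- non-swim group.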
